A study of Mus musculus with 8 samples.

Results

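Lung RNA of 8 untreated mice was compared, within each array, with a reference pool of mouse lung RNA, to describe which genes lay on the same side of that pool in every mouse. The series holds 4 wild-type and 4 Scgb3a2-transgenic male C57BL/6 mice, 8 to 10 weeks old, with 1 array of whole lung per mouse, and the labels call the 4 of each genotype biological replicates. The transgenic mice carry mouse Scgb3a2 cDNA, which encodes a secreted airway protein, under the human surfactant protein C promoter, which is active in alveolar type II cells. They come from a line with 1 founder, and they still hold the endogenous gene. Every mouse's RNA was labelled with Cy5 and hybridised together with Cy3-labelled RNA that the labels name as pooled whole mouse lung, also of C57BL/6, and that, by the study's methods, was mixed from equal RNA amounts of all samples. No array had the dyes swapped. A log2 ratio below 0 means that a probe was dimmer in the lung (Cy5) than in the pool (Cy3), and whether such a difference comes from the RNA or from the dye cannot be told apart. All 8 of 8 arrays were used with both genotypes together. A probe was kept when it was well above background in at least 1 channel on all 8 arrays and had a value, after outlier spots were left out, on at least 2 arrays of each genotype, and 31455 of 41174 probes were kept. They stand for 17951 of the 21229 genes named on the array, and a gene was read from its brightest kept probe.

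The arrays were of similar brightness. The median signal was 204 to 277.5 in the lung channel and 167 to 270 in the pool channel, over local backgrounds of 55.5 to 59 and 25 to 30, no spot was saturated, and 1.72 to 6.46% of spots were left out as outliers. The 4 slides hold 16 array positions, of which 8 belong to this series. Each slide held 1 wild-type and 1 transgenic array, and each scan day held 2 arrays of each genotype. Lung tissue was recognisable in both channels, since Sftpc, Sftpb and Sftpa1 of alveolar type II cells, Scgb1a1 and Scgb3a2 of airway secretory cells, Ager of alveolar type I cells and Cdh5 of endothelium were well above background on all 8 arrays in the lung and in the pool. Cardiac muscle genes, which mouse lung can hold in the sleeves of the pulmonary veins, were present in both channels too, with a mean log2 ratio of 0.25 for Tnnt2 and of -0.21 for Myh6, for which a brighter probe left out for outlier spots gave 0.53 with those spots kept. In whole tissue, fewer cells of a type and less RNA per cell cannot be told apart.

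In a common-reference array, each sample is read as a ratio to a single RNA, so that the sign of a ratio is set by both sides. A gene can lie below 0 because the sample holds little of it or because the reference holds much. Since the dyes were not swapped here, an effect of the dye on the probe can add to either. Healthy adult lung holds, among other cells, alveolar epithelium, capillary endothelium, fibroblasts and resident macrophages, with secretory and ciliated cells along the airways. Injury or inflammation of the lung is known to bring in monocyte-derived macrophages and neutrophils, to induce acute phase proteins and chemokines, and to set fibroblasts to making collagen.

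By limma's moderated test over all kept probes with Benjamini-Hochberg adjustment at 0.05, 9268 probes (29.5%) were lower in the lungs than in the pool and 9256 (29.4%) were higher. Read by gene, 5048 of 17951 (28.1%) were lower and 5754 (32.1%) were higher. Most of these differences were small, with a median log2 ratio of -0.33 among the lower and 0.35 among the higher probes. A probe was called consistently lower or higher when it also differed by at least 2-fold on average and lay on the same side of the pool on every array with a value, of which there had to be at least 6. That held for 341 probes below the pool (1.08%) and 563 above it (1.79%), and by gene for 224 (1.25%) and 321 (1.79%). The test compares the mean ratio with 0 by the spread between the 8 mice. It leaves out any spread of the pool itself, which is a single reference on all arrays. With each array centred on its median in place of the intensity-dependent loess, 479 probes were consistently lower and 461 higher, so that the share of the consistent probes that lie above the pool went from 62.3 to 49% and that of all calls from 50 to 39.9%.

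The higher side held more genes at the smaller folds and the lower side at the largest ones. At 1.5-fold 867 genes were consistently lower and 1106 higher and at 3-fold 60 and 88, whereas at 4-fold 26 were lower and 17 higher, and at 8-fold 2 genes were lower, Saa3 and Retnla, and none was higher. The median signal of the consistently lower probes lay at the 64.4th percentile of brightness among kept probes and that of the higher ones at the 49.2nd. With the kept probes ranked by brightness and cut into 4 equal groups, 16 were consistently lower and 36 higher in the dimmest group, 95 and 251 in the next, 118 and 200 in the one after and 112 and 76 in the brightest. The plot of ratio against brightness shows the lower probes spread over the whole range of signal, and a dense group of higher probes at low to middle signal. At the 2-fold limit itself, Ryr3 at -1.001 fell just inside the lower set and Ifi205 at -0.9988 just outside, and on the upper side Arhgap33 at 1.0 fell inside and Jmjd4 at 0.9998 outside.

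**Figure D1:**
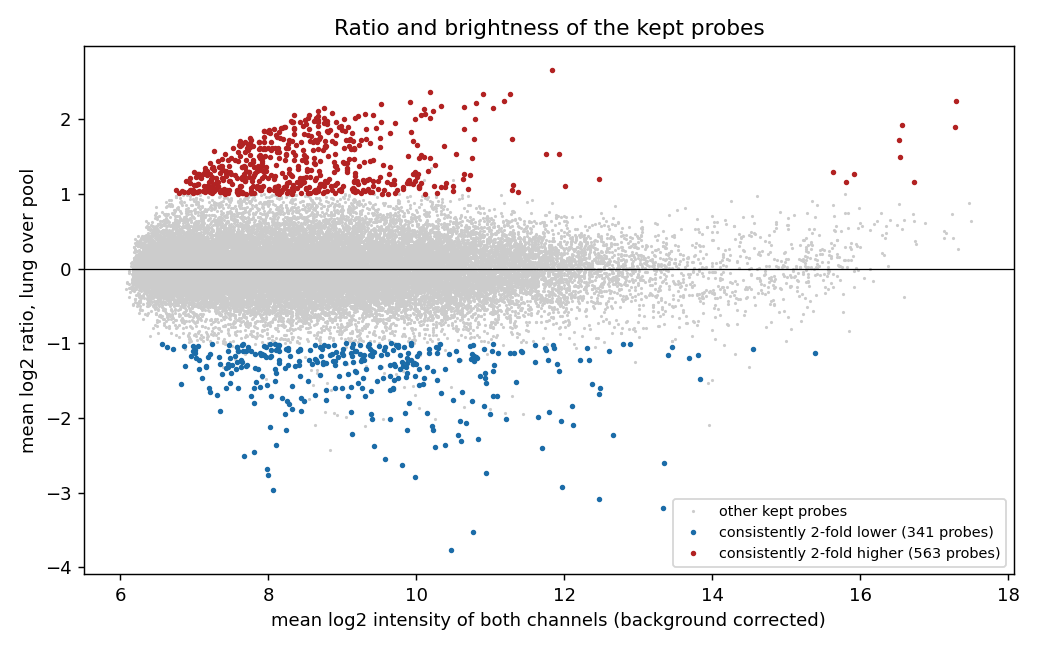
Mean log2 ratio of lung over pool (vertical axis) against mean log2 intensity of both channels (horizontal axis, background corrected) for 31455 kept probes, 1 point a probe. The 341 consistently lower probes (blue) reach to -3.77, and the 563 consistently higher ones (red) to 2.66.

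Of 28316 probes with a value on all 8 arrays, 5920 (20.9%) were below the pool on every array and 6038 (21.3%) above it on every array. A total of 110 were at least 2-fold below on each single array and 207 at least 2-fold above. Below the pool means here only dimmer than the Cy3 channel. The source of the pool RNA beyond its label and the methods' sentence is not given in the sources used here. Whether the composition of the pool, the dyes or the labelling reactions set the ratios of these probes was not tested.

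Among the 12 genes furthest below the pool were genes of activated macrophages, of acute phase and barrier defence and of matrix turnover. Described here are 11 of them, Saa3, Retnla, Mmp12, Timp1, Sprr1a, Gm11428, Lilrb4, Spp1, Nppb, Igh-VJ558 and Clec4n, with mean log2 ratios from -3.53 to -2.37. Saa3, Retnla, Sprr1a and Nppb lead the secreted acute phase, macrophage, epithelial and cardiac genes among them, and each has a single start in the RefSeq table used, so their promoters are shown (GRCm38.p6, 250 bases before to 50 bases after the start, 5′ to 3′ on the gene's strand). They lie at chr7:46715627-46715926 on the minus strand for Saa3, chr16:48842359-48842658 on the plus strand for Retnla, chr3:92485832-92486131 on the minus strand for Sprr1a and chr4:147985650-147985949 on the plus strand for Nppb. Capitals mark matches to the TATA box (letters TATAAA) and to the motif bound by AP-1 factors (letters TGANTCA), and the motif bound by STAT factors (letters TTCNNNGAA) has none in these windows.
Saa3: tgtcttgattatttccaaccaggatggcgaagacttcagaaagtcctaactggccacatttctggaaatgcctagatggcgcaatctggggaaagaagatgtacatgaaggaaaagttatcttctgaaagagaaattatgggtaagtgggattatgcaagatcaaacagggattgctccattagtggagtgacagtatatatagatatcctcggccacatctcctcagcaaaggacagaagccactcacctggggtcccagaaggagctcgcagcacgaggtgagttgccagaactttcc
Retnla: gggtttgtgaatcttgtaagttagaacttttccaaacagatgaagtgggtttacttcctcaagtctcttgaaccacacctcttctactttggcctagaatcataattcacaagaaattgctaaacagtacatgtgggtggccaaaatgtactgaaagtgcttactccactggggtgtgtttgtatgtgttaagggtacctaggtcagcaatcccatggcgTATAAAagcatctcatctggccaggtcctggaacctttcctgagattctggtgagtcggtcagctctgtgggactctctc
Sprr1a: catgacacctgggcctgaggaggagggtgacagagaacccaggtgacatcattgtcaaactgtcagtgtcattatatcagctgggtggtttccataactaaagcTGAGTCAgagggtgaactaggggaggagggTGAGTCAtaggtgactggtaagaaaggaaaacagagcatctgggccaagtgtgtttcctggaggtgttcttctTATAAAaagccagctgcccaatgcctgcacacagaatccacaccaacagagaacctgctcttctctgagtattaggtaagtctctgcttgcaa
Nppb: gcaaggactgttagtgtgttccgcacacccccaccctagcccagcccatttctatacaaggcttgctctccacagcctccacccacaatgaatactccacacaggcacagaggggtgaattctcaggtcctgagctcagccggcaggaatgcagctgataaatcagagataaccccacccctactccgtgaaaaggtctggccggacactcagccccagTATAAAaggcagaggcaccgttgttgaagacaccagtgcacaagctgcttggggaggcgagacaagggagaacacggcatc

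The windows of Retnla, Sprr1a and Nppb each hold 1 TATA box, that of Sprr1a holds 2 AP-1 matches as well, and that of Saa3 holds no match to these letters. Both strands were searched, and no match in these windows overlaps another. Among 32851 RefSeq mouse promoters of the same length, 13.6% held TATAAA, 7.81% TGANTCA and 8.3% TTCNNNGAA. RefSeq promoters matched 151 of the 224 consistently lower genes, and of their 189 windows 31 (16.4%) held TATAAA, 19 held TGANTCA and 14 (7.41%) held TTCNNNGAA. For 181 of the 321 consistently higher genes, with 216 windows, the shares were 13.4, 8.33 and 5.56% in the same order. All lie within a few percentage points of those of all promoters.

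Saa3, an acute phase apolipoprotein made in inflamed tissue, lay furthest below. Its log2 ratios were -3.73, -3.53, -3.98 and -3.24 in wild-type replicates 1 to 4 and -1.27, -3.93, -3.89 and -4.67 in transgenic replicates 1 to 4, so that transgenic replicate 1 stood nearest to the pool and every other lung lay below -3. The mean was -3.53 ± 0.28 (SE, n = 8), or 11.5-fold lower than the pool, at a limma adjusted p of 1.75e-06. Other serum amyloid A genes were nearer to the pool, with -0.75 for Saa1 and -0.59 for Saa2.

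Retnla, also called FIZZ1, a secreted protein of alternatively activated macrophages and of airway epithelium, followed at -3.21 ± 0.14 (SE, n = 8), 9.26-fold lower, with a limma adjusted p of 2.94e-08. The wild-type lungs read -3.27, -3.29, -3.44 and -3.09 and the transgenic ones -2.61, -3.60, -2.44 and -3.96. All 8 were at least 4-fold below the pool, and a further Retnla probe gave -3.09.

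Timp1, an inhibitor of matrix metalloproteinases, read -2.87, -3.15, -3.11 and -2.85 in the wild-type and -2.45, -2.80, -2.94 and -3.18 in the transgenic lungs. Its 8 values lay close together, and the mean of -2.92 ± 0.08 (SE, n = 8) is 7.56-fold below the pool, with a limma adjusted p of 3.81e-09. A second Timp1 probe lay still lower at -3.77. Mmp12, the macrophage elastase, read -3.31, -3.23, -3.02 and -2.70 in wild-type and -2.87, -2.78, -2.80 and -2.95 in transgenic lungs, a mean of -2.96 ± 0.07 (SE, n = 8) at a limma adjusted p of 1.75e-09, with 7 of 8 lungs well above background. Its size depended on the background correction and ran from -4.42 with Agilent's processed signals to -2.0 with normexp fitted on all spots. Spp1, osteopontin, a matrix phosphoprotein secreted by macrophages, had a mean of -2.60 ± 0.15 (SE, n = 8) and ranged from -3.54 in wild-type replicate 1 to -2.01 in transgenic replicate 3.

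Sprr1a, a small proline-rich protein of the cornified envelope that is induced in stressed epithelium, ran from -3.41 to -2.43 with a mean of -2.79. The myeloid surface receptors Lilrb4, which is inhibitory, and Clec4n (dectin-2), which binds fungal mannans, had means of -2.63 on 7 arrays and -2.37 on 8. Nppb, the brain natriuretic peptide of heart muscle, had -2.40 and ran from -2.61 to -2.02, but a dimmer Nppb probe gave -0.06. The immunoglobulin heavy chain probe Igh-VJ558 had a mean of -2.39 on 6 arrays, and it may bind several near-identical gene segments. The predicted gene Gm11428 had a mean of -2.73 and, like Saa3, its highest value, -1.87, in transgenic replicate 1. In the dot plot of the furthest genes all arrays of these 11 genes lie below the pool, which the rule asked for.

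**Figure D2:**
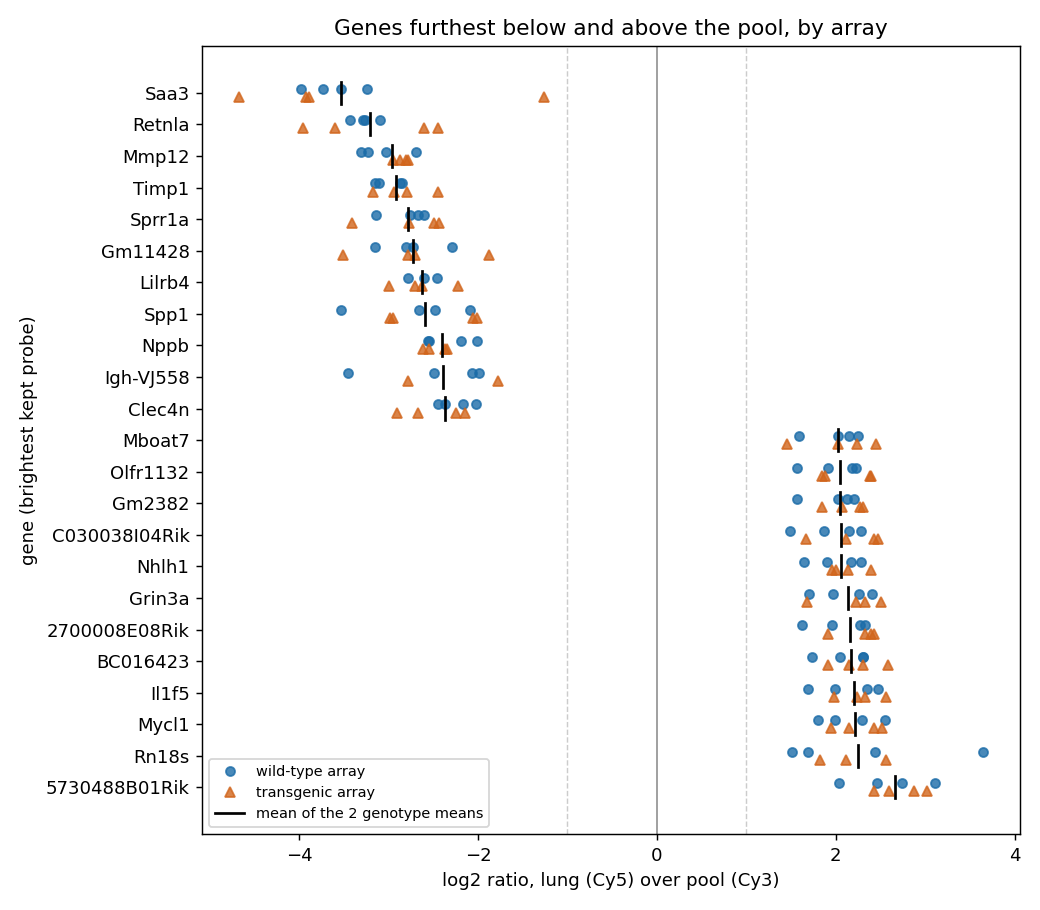
Log2 ratio of lung over pool (horizontal axis) for 11 of the 12 genes furthest below and the 12 furthest above the pool, 1 point an array (circles wild-type, triangles transgenic), with the mean of the genotype means as a black bar and dashed lines at 2-fold. The lower genes run from -3.53 for Saa3 to -2.37 for Clec4n in the mean, and the upper ones from 2.02 for Mboat7 to 2.66 for 5730488B01Rik.

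Across gene lists, those of activated macrophages, macrophages and injury matrix lay furthest below, against a median over all 17951 genes of 0.02. Over all genes 28.1% were called lower, 32.1% higher and 1.25% consistently lower, and the counts of each list stand beside these shares. The lists were chosen with earlier results of these data known, and some genes stand in several lists. Their shares are therefore a description and not a test. The share called lower was 85% for alternatively activated macrophages, 67.9% for macrophages, 90.3% for injury matrix, 73.3% for the cell cycle, 70% for complement, 63% for chemokines and 58.1% for acute phase and epithelial defence. Below the pool on every array lay 21.5% of all genes, 15 of 20 genes of the first of these lists, 17 of 28 of the second and 25 of 31 of the third. Of 20 measured genes of alternatively activated macrophages, 17 were lower, 1 higher and 9 consistently lower, and their median was -1.03. Beside Retnla these included Trem2, a lipid-sensing receptor (-2.23), the chemokine Ccl17 (-2.01), the scavenger receptor Msr1 (-1.55), Gpnmb (-1.40), the beta-glucan receptor Clec7a (-1.30), the interleukin-1 receptor antagonist Il1rn (-1.28) and the lectin Mgl2 (-1.25). The 1 higher gene was the eosinophil chemokine Ccl24 at 0.61. Other probes for Msr1 gave -2.69 and -1.55. The mannose receptor Mrc1, which resident alveolar macrophages also carry, was nearer to the pool at -0.70, Chil3 lay at -0.40 and Cd163 at -0.31.

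Of 28 macrophage genes, 19 were lower and 3 higher, 10 were consistently lower, and the median was -0.78. The subunits of complement C1q, which tissue macrophages make, gave -2.09 for C1qb, -1.98 for C1qa and -1.70 for C1qc. In wild-type lungs C1qb read -2.03, -1.91, -2.01 and -2.15, and in transgenic ones -1.99, -1.96, -2.17 and -2.51, a narrow band far below the pool with a limma adjusted p of 5.1e-09. Cd68, a lysosomal glycoprotein of macrophages, gave -2.04, the Fc receptors Fcgr3 and Fcgr1 -1.95 and -1.71, and the signalling adaptor Tyrobp -1.68. The cathepsin Ctss gave -2.09 but had a value on 4 arrays only, so it is not counted as consistent. The integrin Itgam gave -1.35 and the chemokine receptor Ccr2 -1.16. Nearer to the pool were the scavenger receptor Marco at -0.24, which was not called, and Ear1 at -0.83, which was lower. The 3 higher genes of the list were lysozyme Lyz2 (0.52), the lectin Siglecf (0.49) and Fabp1 (0.37).

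The extracellular matrix list held the largest share of lower genes, 28 of 31, with 2 higher, 12 consistently lower and a median of -0.73. Beside Mmp12, Timp1 and Spp1, these included fibronectin Fn1 (-2.23), tenascin Tnc (-1.46), the fibrillar collagens Col5a2, Col5a1, Col1a1 and Col3a1, fibulin Fbln2 (-1.06) and the crosslinking enzyme Loxl1 (-1.06). Col1a1, a chain of collagen type I, read -1.40, -1.28, -1.66 and -1.30 in wild-type and -0.76, -0.92, -1.01 and -1.51 in transgenic lungs, a mean of -1.23 ± 0.08 (SE, n = 8) at a limma adjusted p of 3.37e-07. Col3a1 ran from -1.50 to -0.77 with a mean of -1.14, Col5a2 from -1.97 to -1.19 with a mean of -1.51. A second Col1a1 probe gave -2.04, and a second Fn1 probe -2.29. The 2 higher genes were Col14a1 (0.75) and the smooth muscle gene Tagln (0.38), for which a probe left out for outlier spots gave -0.39 with those spots kept. Basement membrane genes were nearer to the pool, with 7 lower and 4 higher of 16, none consistent and a median of -0.08.

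The chemokine list was mixed. Of 27 genes 17 were lower and 6 higher, 9 were consistently lower, and the median was -0.39. Besides Ccl17, the consistently lower ones were the monocyte attractants Ccl12 (-2.16), Ccl8 (-2.02), Ccl7 (-1.92) and Ccl2 (-1.45), Ccl9 (-1.76), Ccl6 (-1.15), the interferon-induced Cxcl10 (-1.90) and the B cell attractant Cxcl13 (-1.70). Ccl8 read -2.27, -2.07, -2.45 and -2.60 in wild-type lungs and -0.21, -1.70, -2.19 and -2.62 in transgenic ones, where replicate 1 was again nearest to the pool. Cxcl10 was well above background in 6 of 8 lungs and in the pool on all 8 arrays, and its mean ran from -3.87 with Agilent's processed signals to -1.24 with normexp fitted on all spots. Higher ones included the platelet chemokine Ppbp (0.71), Ccl24 and the neutrophil attractant Cxcl1 (0.61).

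Acute phase and epithelial defence genes were lower in 18 of 31 and higher in 2, with 7 consistently lower and a median of -0.48. After Saa3 and Sprr1a came the protease inhibitor Serpina3n (-2.37), the siderophore-binding Lcn2 (-1.93), Serpina3g (-1.44), the plasma protein Orm1 (-1.25) and the cyclin-dependent kinase inhibitor Cdkn1a (-1.22). Lcn2 varied widely, from -3.12 in transgenic replicate 4 to -1.02 in transgenic replicate 1. The neutrophil list varied most between lungs of the lists below the pool. It had 11 lower and 5 higher of 21, 3 consistently lower, and a median of -0.44 whose value on single arrays ran from -0.78 to 0.35. S100a8, a calcium-binding protein that fills the neutrophil cytosol, read -2.82, -2.73, -3.55 and -0.32 in wild-type and 0.69, -1.82, -1.74 and -3.61 in transgenic lungs. Since transgenic replicate 1 was above the pool it does not count as consistent, in spite of a mean of -1.99 at a limma adjusted p of 0.00163. Mmp8, the neutrophil collagenase, was below on all 8 arrays, from -2.48 to -0.79.

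Of 45 cell cycle and DNA replication genes 33 were lower, 3 higher and 8 consistently lower, with a median of -0.54. On every array 30 of them lay below the pool. Top2a, the topoisomerase that untangles replicated DNA, read -2.0, -1.75, -2.13 and -1.52 in wild-type and -1.74, -1.26, -1.81 and -1.82 in transgenic lungs. The mean was -1.76 ± 0.08 (SE, n = 8), 3.38-fold lower, with a limma adjusted p of 3.27e-08. The proliferation antigen Mki67 had -1.64, the mitotic cyclin Ccnb1 -1.46, the spindle factor Tpx2 -1.41, thymidine kinase Tk1 -1.26, ribonucleotide reductase Rrm2 -1.09 and the cytokinesis factor Prc1 -1.01. Cdk1, the kinase that drives mitosis, was not well above background in any lung but was in the pool, so its level in the lungs is a bound, at least 2.01-fold lower. Of the consistent genes with a value on every array, Prc1 and Plk4 were among the 5 with the least spread. Prc1 lay between -1.10 and -0.80, and Plk4, which builds centrioles, between -1.18 and -0.90. The 3 higher genes were Bub1 (0.82), Hmmr (0.61) and Birc5 (0.57), all of which act in mitosis.

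Complement genes were lower in 14 of 20 and higher in 1, with a median of -0.42. Besides the C1q subunits, which the macrophage list shares, factor B (Cfb, -1.18) and the anaphylatoxin receptors C3ar1 (-1.19) and C5ar1 (-1.17) were consistently lower, whereas C3 lay at -0.05. MHC class II and antigen presenting genes gave 14 lower and 2 higher of 21 and a median of -0.41, with H2-Aa at -0.79 and H2-Ab1 at -0.62 on 5 arrays, and none was consistent at 2-fold. Interferon-stimulated genes gave 24 lower and none higher of 37, with a smaller median of -0.26, and 2 were consistently lower, Cxcl10 and the transcription factor Irf7 (-1.02).

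Plasma cell and lymphocyte genes were uneven between lungs. Of 16 immunoglobulin and plasma cell genes 8 were lower and none higher, and the list's median on single arrays ran from -0.76 to 0.21. The joining chain Igj had -2.17 on 6 arrays, and the light chain segment Iglv1 -1.32, with every array below the pool but values from -2.33 to -0.30. B cell genes had 9 lower and 4 higher of 22, T cell genes 11 and 7 of 26, and their medians were -0.16 and -0.08. Inflammatory cytokine genes were lower in 14 of 27 and higher in 3, with a median of -0.17. Il1b had a mean of -0.47 and Tnf one of 0.01, with Tnf values on both sides of the pool.

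Ribosomal, respiratory chain and lipid synthesis genes had medians near that of all genes. The 59 ribosomal protein genes had a median of 0.01, with 15 lower and 14 higher, shares of 25.4 and 23.7% beside 28.1 and 32.1% of all genes. Respiratory chain genes had a median of -0.04, with 13 lower and 2 higher of 35, and cholesterol and fatty acid synthesis genes one of 0.01, with 8 and 9 of 26. Of all genes in these lists none lay consistently above the pool at 2-fold and 1 lay below, the sterol demethylase Cyp51 (-1.01).

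**Figure D3:**
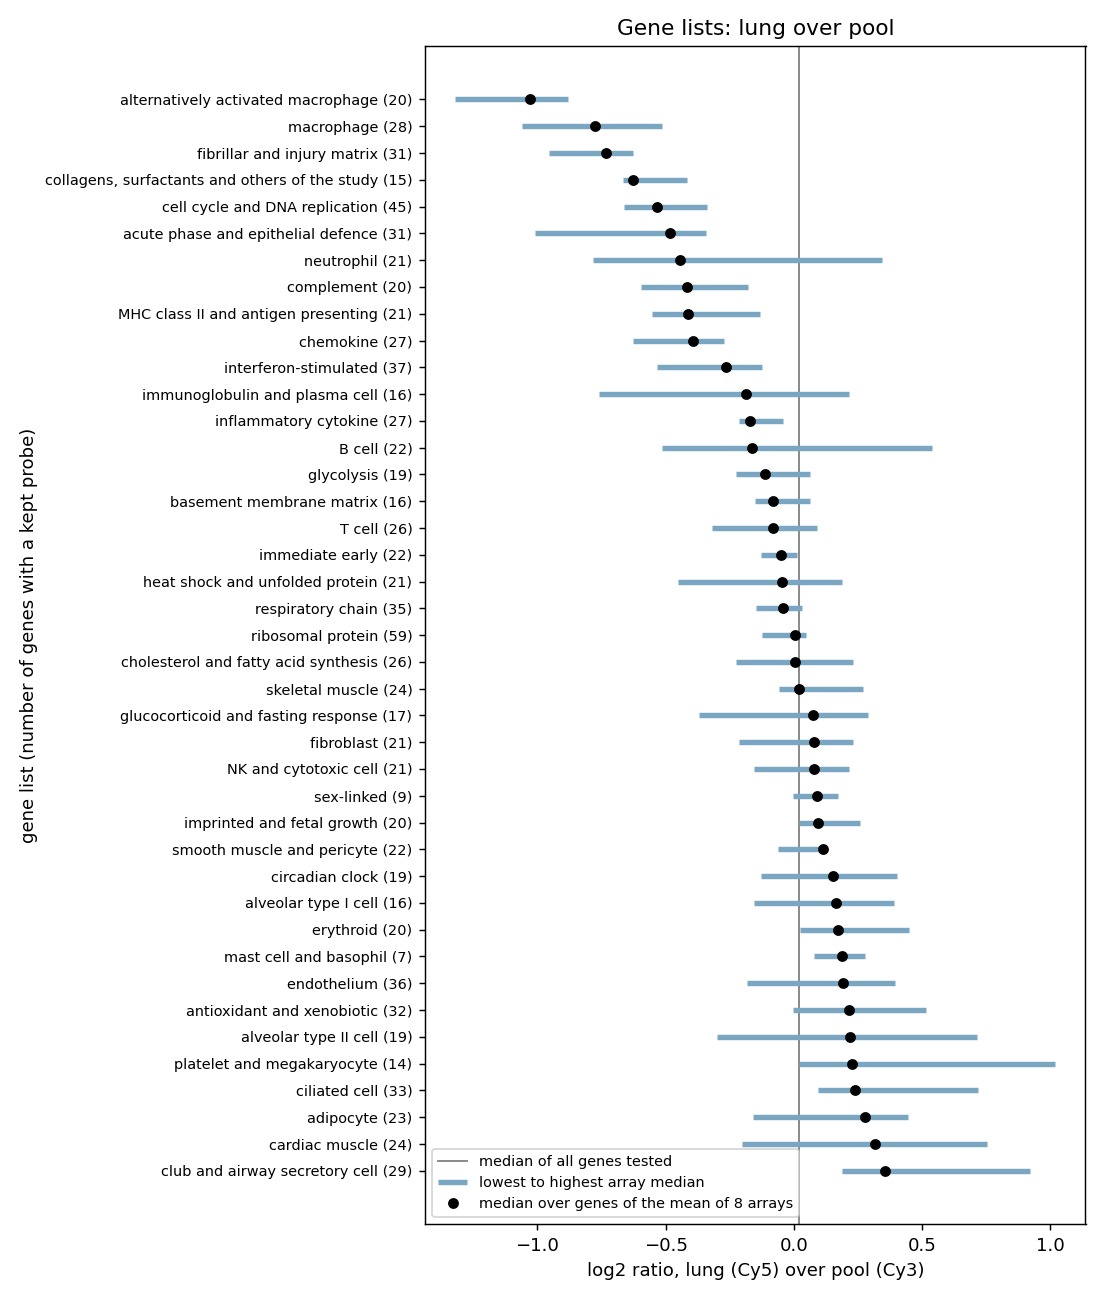
Median log2 ratio of lung over pool (horizontal axis) of the gene lists with at least 5 measured genes, with the number measured in brackets. Dots are medians over genes of the mean of 8 arrays, bars run from the lowest to the highest array median, and the vertical line is the median of all genes, 0.02, with alternatively activated macrophages at -1.03 and airway secretory cells at 0.36 as the extremes.

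Lists of airway and alveolar epithelium and of endothelium had medians above 0, by smaller amounts than the lists furthest below. The medians of the alveolar type I and type II lists each took the other sign in 1 alternative processing. Over all genes 24.3% lay above the pool on every array, and among these lists 11 of 29 club and airway secretory genes did, 14 of 33 ciliated cell genes, 5 of 19 alveolar type II genes, 4 of 16 alveolar type I genes and 3 of 36 endothelial genes. The club and airway secretory list was higher in 18 of 29 and lower in 2, with a median of 0.36, beside 32.1% of all genes called higher. Scgb1a1, the main secreted protein of club cells, read 2.20, 1.43, 2.83 and 1.45 in wild-type lungs and 1.94, 1.71 and 1.98 in transgenic replicates 2 to 4. The value of transgenic replicate 1 was left out as an outlier spot. All 7 values lay at least 2-fold above the pool, with a mean of 1.93 ± 0.15 (SE, n = 7), 3.80-fold higher, at a limma adjusted p of 2.76e-06. Cyp2f2, a cytochrome P450 of club cells, was 1.15 on average and ran from 0.73 to 1.94. The list also holds Retnla, which was far below, and Kdr, the endothelial VEGF receptor.

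Alveolar type II genes gave 9 higher and 4 lower of 19 and a median of 0.22. The list's median was 0.33 in wild-type and 0.07 in transgenic lungs and ran from -0.30 to 0.715 over single arrays. Of the 19 genes 1 had a higher mean in transgenic than in wild-type lungs. In other lists this count leaned either way, with 1 of 14 platelet and megakaryocyte genes and 28 of 36 endothelial genes. Its share over all genes was not counted. Of the 19 genes 3 differed at an unadjusted p of 0.05 by limma. So did 409 of all 17951 genes, and no kept probe passed the test between genotypes after adjustment. Sftpc, surfactant protein C, stood out among them, with 2.34, 1.47, 3.09 and 1.22 in wild-type and 0.79, 1.74 and 1.74 in transgenic replicates 1 to 3. All 7 values lay above the pool, and the mean was 1.73 ± 0.20 (SE, n = 7), 3.31-fold higher, at a limma adjusted p of 5.4e-05. Other surfactant genes were near the pool, with 0.45 for Sftpb, 0.39 for Sftpa1 and 0.22 for Sftpd. In the same order, their means were 0.74, 0.76 and 0.46 in wild-type and 0.17, 0.01 and -0.01 in transgenic lungs. On transgenic arrays only none of them was called, at limma adjusted p of 0.323, 0.931 and 0.92. Agilent's processed signals and median-centring in place of loess lost these calls too. The calls also depended on single arrays. Without wild-type replicate 3 Sftpb had 0.31 at an adjusted p of 0.0649, and Sftpa1 and Sftpd passed the limit no longer without any 1 of wild-type replicates 1, 2 or 3 or transgenic replicates 2 or 3, with means of 0.23 to 0.41 and of 0.18 to 0.23. On the lower side were the cathepsin Ctsh (-0.73, below the pool on all 8 arrays) and Lamp3, both of the lysosomal compartment of these cells. Lamp3 had a mean of -0.88 on 5 arrays, from -1.90 to -0.21, but its other kept probes gave 0.05 and 0.26, and a brighter one that was left out for outlier spots gave 0.11 with those spots kept. Alveolar type I genes gave 8 higher and 2 lower of 16, with Ager at 0.04 and Pdpn at -0.79.

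Ciliated cell genes were higher in 20 of 33 and lower in 3, with a median of 0.24, and 2 were consistently higher, the cadherin Cdhr3 (1.45) and the axonemal Ccdc39 (1.11). Endothelial genes were higher in 16 of 36 and lower in 2, with a median of 0.19 and none at 2-fold, led by Ramp2, a partner of the adrenomedullin receptor (0.74), and Kdr (0.72). Antioxidant and xenobiotic genes were higher in 16 of 32 and lower in 1, with a median of 0.22, led by the glutathione transferases Gstm1 (0.97) and Gstm3 (0.87) and the peroxiredoxin Prdx6 (0.85), while the 1 lower gene was the glutathione peroxidase Gpx1 at -0.26. Fibroblast genes were higher in 8 of 21 and lower in 6, with a median of 0.08. They ran from Mfap5, a microfibril protein, at -0.93 to Inmt, an indolethylamine methyltransferase abundant in lung and the 1 gene of the list consistently above, at 1.29 with values from 0.82 to 1.72.

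Cardiac muscle genes were higher in 13 of 24 and lower in 3, with a median of 0.32, led by myoglobin Mb (0.84), so that Nppb stood apart from the rest of its list. Adipocyte genes were higher in 13 of 23 and lower in 4, with a median of 0.28 that ran from -0.16 to 0.45 over single arrays, led upward by the lipid droplet genes Cidec (0.76) and Plin4 (0.71), while lipoprotein lipase Lpl lay at -0.73 on 5 arrays, a call that was lost on wild-type arrays only (-0.34, adjusted p of 0.0543 by limma). Erythroid genes were higher in 10 of 20 and lower in 1. The haemoglobin gene Hbb-b1, whose probe may also read its near-identical copy, ran from -0.22 to 2.64 with a mean of 0.81. Its call was lost without wild-type replicate 3 (0.66, limma adjusted p of 0.0573) and on transgenic arrays only (0.88, 0.0941). Scan day 2 alone (0.79, 0.0605) and Agilent's processed signals (0.66, 0.0745) lost the call too.

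The 12 genes furthest above the pool were 5730488B01Rik, Rn18s, Mycl1, Il1f5, BC016423, 2700008E08Rik, Grin3a, Nhlh1, C030038I04Rik, Gm2382, Olfr1132 and Mboat7, with means from 2.66 to 2.02. 5730488B01Rik, a RIKEN transcript, read 2.46, 2.03, 3.11 and 2.74 in wild-type and 3.02, 2.43, 2.88 and 2.59 in transgenic lungs, a mean of 2.66 ± 0.11 (SE, n = 8), 6.32-fold higher, at a limma adjusted p of 1.47e-08. All 8 lungs were at least 4-fold above the pool. Grin3a, a subunit of a neuronal glutamate receptor, Nhlh1, a neuronal transcription factor, and Olfr1132, an olfactory receptor, belong to families that are not typical of lung, and their means were 2.13, 2.06 and 2.05. Mycl1, a Myc family transcription factor, had 2.21, the interleukin-36 receptor antagonist Il1f5 2.20 and the phospholipid acyltransferase Mboat7 2.02. The lowest value of each of these 12 genes lay between 1.45 and 2.03.

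Rn18s, the 18S ribosomal RNA, was the brightest named gene of this set and the most variable, with 1.51, 2.44, 3.64 and 1.69 in wild-type and 2.56, 1.82 and 2.11 in transgenic replicates 1, 3 and 4. Probes named 28s and AY036118 behaved likewise, being bright and spread out. The 28s probe ran from 0.02 to 2.40 with a mean of 1.16, and AY036118 from 0.11 to 3.44 with a mean of 1.49. For AY036118 the arrays of the first scan day averaged 2.47 and those of the second 0.51, and the highest values on the first day were those of wild-type replicate 3 and transgenic replicate 1.

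Probes without a gene name or of uncharacterised transcripts were frequent on the higher side. Of the consistently higher probes 73.5% carried a gene symbol, and 26.6% of these were RIKEN, predicted or LOC entries, against 88.9 and 10.8% over all kept probes. Of the consistently lower probes 89.7% carried a symbol, and 5.88% of those were such entries. Among the 50 probes furthest above, 12 had no symbol, and among the 50 furthest below 2 had none.

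Different probes of the same gene gave like answers below the pool and unlike ones above it. For 81 consistently lower genes the array held 99 other kept probes, of which 83 (83.8%) also lay below the pool, 76 were called lower, 6 were called higher and 37 (37.4%) were themselves consistently lower. Their median was -0.79, where that of the brightest probes of these 81 genes, chosen by this ratio, was -1.30. For 98 consistently higher genes there were 146 other probes, of which 68 (46.6%) lay above the pool, 44 were called higher, 41 were called lower and 6 (4.11%) were consistently higher, with a median of -0.03. Over all 7063 genes with several kept probes, 59% of the 10020 other probes lay on the side of the brightest.

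Single genes show the same. Mboat7 had 2.02 by its brightest probe and -0.43 and -0.36 by others. BC016423 had 2.17 and then -0.43 and -0.35, and Gm2382 had 2.05 and -0.11. Man2b1, a lysosomal mannosidase, lay at -0.59 by its brightest probe and at 2.24 by another, so that it is not in the higher set by gene. Scgb1a1 and Sftpc each rest on 1 kept probe. The positions of the probes in their transcripts were not analysed here, and which transcript form each probe reads was not tested.

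**Figure D4:**
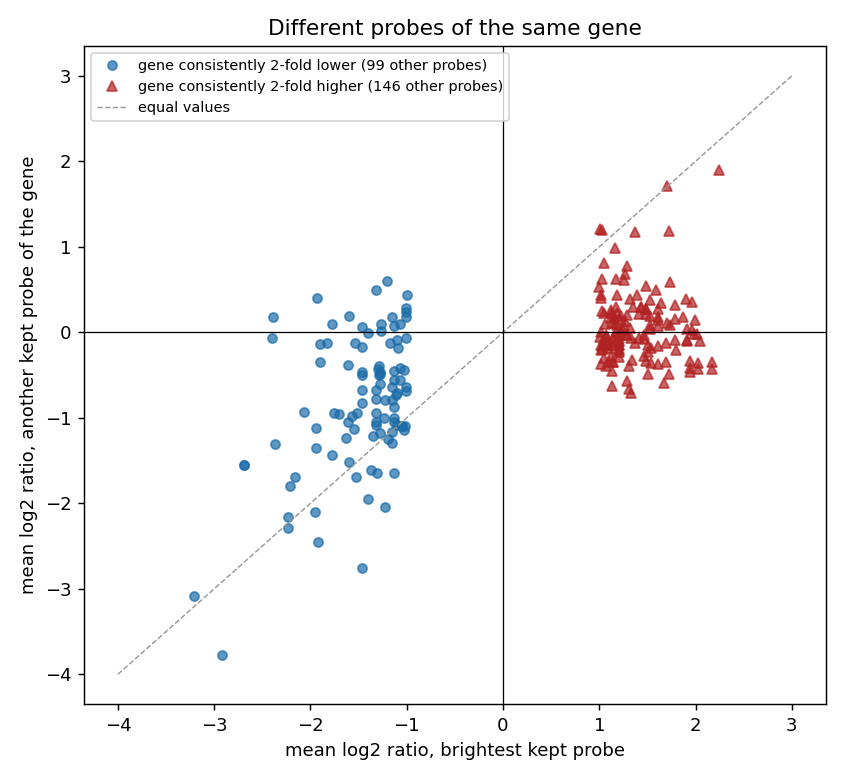
Mean log2 ratio of another kept probe of a gene (vertical axis) against that of its brightest kept probe (horizontal axis), for genes consistently lower (circles, 99 other probes) and consistently higher (triangles, 146 other probes), with a dashed line of equal values. Of the other probes 83 lie below 0 for the lower genes and 68 above 0 for the higher ones.

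The rule asked for 1 side on every array, so that the direction of the consistent probes is shared by both genotypes by construction. The size was not fixed in this way. Of the 341 consistently lower probes 291 were 2-fold below in both genotype means, and of the 563 higher ones 478 were 2-fold above in both, with set medians of -1.31 in wild-type and -1.24 in transgenic lungs and of 1.26 and 1.36. By limma no probe (0% of 31455) differed between the genotypes at an adjusted p of 0.05. At an unadjusted 0.05, 654 probes did, among them 16 of the 341 and 14 of the 563, and the methods' t-test passed 817 at that limit and 0 after Benjamini-Hochberg adjustment. The unadjusted count of 654 became 1136 without wild-type replicate 4, 1029 without transgenic replicate 1, 994 without transgenic replicate 4, 1160 with slide as a block and 1256 with array weights, and 362 with normexp fitted on all spots, and the adjusted count stayed at 0 in each. The pool is shared by both genotypes, so these sets are not independent of each other.

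**Figure D5:**
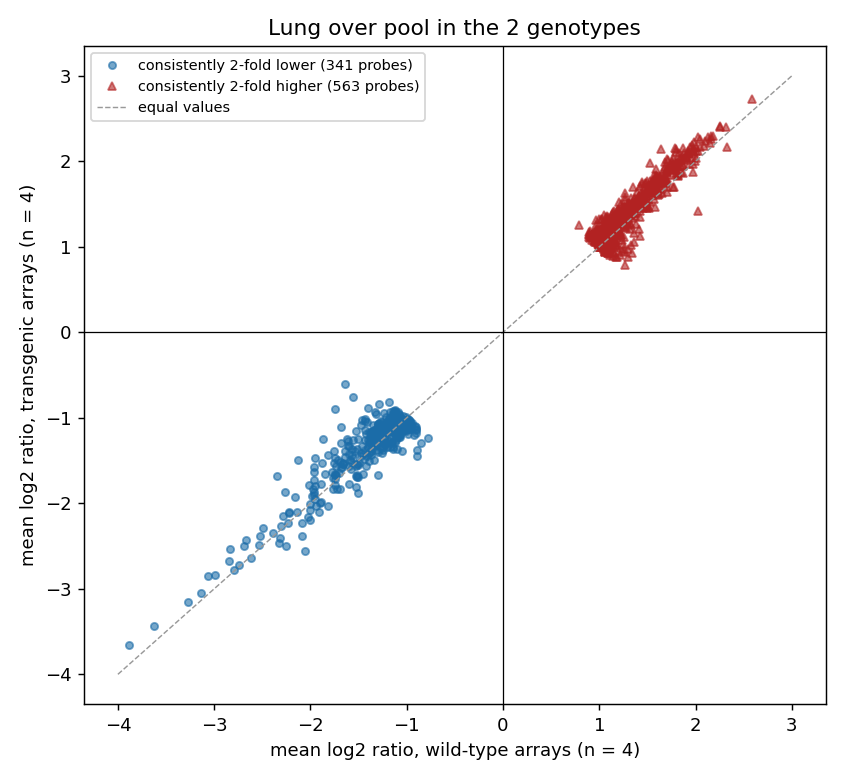
Mean log2 ratio of lung over pool in 4 transgenic arrays (vertical axis) against 4 wild-type arrays (horizontal axis) for the 341 consistently lower and 563 consistently higher probes, 1 point a probe, with a dashed line of equal values. The set medians are -1.31 and -1.24 for the lower probes and 1.26 and 1.36 for the higher ones, in wild-type and transgenic lungs respectively.

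Scgb3a2, the gene added by the transgene, was the check of the labels. It read 0.01, -0.39, 0.58 and -0.56 in wild-type lungs and 1.26, 0.47, 0.70 and 0.74 in transgenic ones. The 4 transgenic values lay above the pool while the wild-type ones fell on both sides, and the groups overlap in that wild-type replicate 3 exceeded transgenic replicate 2, which was on another slide. Within each of the 4 slides the transgenic lung was higher, by 0.155 to 1.26. The means were -0.09 ± 0.51 (SD, n = 4) and 0.79 ± 0.33 (SD, n = 4), a difference of 0.88 ± 0.24 (SE) with a limma adjusted p of 1 over all probes and an unadjusted one of 0.0033. For this single gene an exact two-sided permutation test over the 8 lungs gave p = 0.0571, and an exact sign-flip test over the 4 slides gave 0.125, the smallest it can give. The mean of both genotypes was 0.35. Its call as higher than the pool was lost without wild-type replicate 1 (0.33), wild-type replicate 3 (0.24) or transgenic replicate 1 (0.27). The call was lost as well on scan day 2 alone (0.05) and with array weights (0.21). Normexp fitted on all spots (0.33) and Agilent's processed signals (0.24) lost it too. Whether the probe lies in the cDNA of the transgene was not analysed here.

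The direction of the consistent probes is shared by both scan days by construction too, and only their size was left free. The consistently lower probes had a median of -1.39 on the first scan day and -1.16 on the second, the higher ones 1.38 and 1.24, and 248 and 437 probes were 2-fold on the same side on both days. Among the consistent genes with a value on every array, the least spread, besides Prc1 and Plk4, was seen for genes such as Dbc1 (-1.25 to -0.90) and the ring finger gene Rnf112 (-2.07 to -1.77). The most was seen for AY036118, 28s, Saa3, Ccl8 and LOC100505358, which read -1.65, -1.48, -2.24 and -1.19 in wild-type and -0.11, -0.34, -0.33 and -1.65 in transgenic lungs.

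All 8 mice were labelled male. The Y-linked genes Ddx3y, Eif2s3y, Uty, Kdm5d, Zfy1, Zfy2 and Usp9y had means between -0.10 and 0.35, and Zfy1 and Usp9y were called higher. Xist, the transcript that silences an X chromosome in females, had 0.66 with all 8 arrays above the pool, but its signal lay at the 11th percentile of brightness and the pool was well above background for it on 6 of 8 arrays. Tsix, its antisense transcript, went the other way, with a mean of -0.30 and 6 of 8 arrays below the pool, at a limma adjusted p of 0.0559. In Agilent's processed signals it had -0.61 at a limma adjusted p of 0.00622, and over all alternatives run its adjusted p went from 0.00257 to 1.

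A further list held genes of collagen, smooth muscle, surfactant and cytokines that were also measured with other methods in the study. In these arrays 9 of its 15 measured genes were lower and 5 higher, with a median of -0.63. Beside those given above, Col4a1 had -0.78 and Acta2, the actin of smooth muscle and myofibroblasts, -0.70, each on 6 arrays, and Mmp2, a gelatinase, -0.75 and Col12a1 -0.63 on 8, with every value below the pool, whereas the water channel Aqp1 lay above at 0.42 on 6 arrays. The call of Aqp1 was lost with median-centring in place of loess (0.25, adjusted p of 0.0628 by limma) and on wild-type arrays only (0.31, adjusted p of 0.0683 by limma).

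Leaving out outlier spots removed 1325 probes, mostly bright ones, with a median at the 93.8th percentile of brightness. With these spots kept, 26 of them had a mean of -1 or lower and 11 one of 1 or higher. Several belong to the lists above. Cbr2, a carbonyl reductase of club cells, had 2.46, the matricellular Thbs1 -2.25 by its furthest probe, elastin Eln -1.42 and the tight junction gene Cldn18 0.41, and none of these is counted in the numbers given for the lists.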

How the data were processed

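Per the file headers, scanner intensity files from Agilent Feature Extraction 10.10.1.1 were deposited for each array (the submitters' processing notes name 11.0.1.1), with a median signal and a local background per spot and channel and a log10 ratio of the processed signals. The authors also deposited a table of log2 ratios from GeneSpring, and all 39811 of its probes with 1 spot matched log2 of processed lung over processed pool signal to within 0.001, so no centring had been added, and its 8 column medians lay between -0.0501 and 0.036. It served as an alternative.

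Median signals were corrected by normexp with an offset of 50 on the local background, which narrows the ratios of dim spots, and normalized by loess (span 0.3) within each array. Spots with uniformity or population outlier flags or manual flags were left out, 1325 probes with too few values after that were dropped, and spots of a probe were averaged. Control spots were left out. In limma 3.58.1 (R 4.3.3) the mean of both genotype means and their difference were fitted with lmFit and eBayes. Symbols came from the deposited table for 33870 probes and from RefSeq for 933, and 6371 stayed unnamed.

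Members and gene lists were chosen with earlier results of these data known. Named genes were the 12 furthest below and above, up to 3 of each list with the largest ratio among the called, all genes of the sex-linked, transgene and other-methods lists, and the 5 consistent genes with most and with least spread among those with a value on every array. A few of these genes are not reported here. Further genes were named after their values were seen, to describe the lists. P-values measure the spread between the 8 mice, and the number of arrays limits their precision. The fit was also run on simulated data, but the outcome is not given here. Background correction, normalization, flags, filters, variance models, blocks and left-out arrays were tried as alternatives, and the mean over a gene's probes and the differences of Scgb3a2 within slides were added after seeing the data.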

Additional observations from a re-analysis of the deposited data

Results flagged for a closer look

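Within the 4 arrays of a genotype, a value was picked out when its distance to the nearest other array took most of the group's range (above 0.829 of it, Dixon's limit for 4 values). Chance picks about 1 in 20 groups, and 11 of 246 groups were picked.

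In wild-type lungs, replicate 3 was highest for Cyp2f2, with a log2 ratio of 1.94 against 0.785 to 0.91 in the others, and for the median of the ciliated cell list, with 0.435 against 0.0946 to 0.128. Wild-type replicate 4 was nearest to the pool for Trem2, with -1.93 against -2.37 to -2.31.

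In transgenic lungs, replicate 1 lay at 0.0781 for Il1b against -0.641 to -0.527, and at -0.315 for Mb against 0.849 to 1.0. Transgenic replicate 2 was far above the others for Hbb-b1, with 2.64 against 0.059 to 0.466. It was also nearest to the pool for Top2a, with -1.26 against -1.82 to -1.74, and for the median of the basement membrane list, with -0.0548 against -0.082 to -0.0787. Transgenic replicate 4 was lowest for Serpina3n, with -2.91 against -2.27 to -2.22, and for LOC100505358, with -1.65 against -0.342 to -0.109, and highest for Ramp2, with 0.998 against 0.725 to 0.757.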

How the results depend on the processing

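The counts of consistent probes depended on the background correction, alone or changed together with the normalization, and on the fold asked for. Against 341 lower and 563 higher, there were 729 and 1112 with a normexp offset of 0, 711 and 1071 with the local background subtracted, 987 and 1294 with Agilent's processed signals and 994 and 1305 with the authors' table. All of these lack the offset, and the last 2 pairs also come without the loess, so that 2 choices changed at once. There were 162 and 238 with normexp fitted on all spots, flagged ones included. At 1.5-fold they were 1409 and 1835 and at 4-fold 37 and 31. The counts of called probes, 9268 lower and 9256 higher, fell to 2656 and 2868 against a fold of 1.2 in place of 0, to 5247 and 5417 on scan day 1 alone and, for the lower ones, to 6176 on transgenic arrays only, where fewer arrays entered. Leaving out 1 array at a time gave 311 to 392 consistently lower and 497 to 604 consistently higher probes, and 8376 to 8834 lower and 8370 to 8766 higher calls. In every setting for which the genotype test was counted, 0 probes differed between the genotypes. It was not counted for the fits of a single scan day.

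The labels' replicate numbers did not pair the samples. Deviations from the genotype means of same-numbered arrays correlated at 0.321, 0.254, -0.0787 and -0.214, and with the replicate block there were 344 consistently lower and 565 higher probes of 9111 lower and 9183 higher calls. Pairs on the same slide correlated at 0.321, 0.254, 0.298 and 0.067, where those at 0.321 and 0.254 are same-numbered pairs too. With slide as a block the consistent counts were 341 and 566. The unadjusted count between genotypes went from 654 to 1160 with that block, and the adjusted one stayed at 0.

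Of 156 genes chosen by the naming rule, 132 kept the same call, or the lack of a call, in every setting run. Genes without a call could change sign, as did Tnf (-0.06 to 0.09). Scgb3a2 turned to -0.0915 on wild-type arrays only and Sftpd to -0.0142 on transgenic arrays only. The mean ratio of 13 of the 156 moved by over 1.5-fold in at least 1 setting, and for 12 of them this was seen under another background correction or the processed signals. Besides Cxcl10 and Mmp12, these include Ccnb1 (-2.93 to -0.94), Il1rn (-2.24 to -0.87), Cxcl13 (-2.46 to -1.31), Ccl12 (-2.88 to -1.54), Xist (0.38 to 1.92) and Usp9y (0.18 to 1.36), all with 1 direction throughout. Of 1302 list medians under the alternatives 65 moved by more than the spread between arrays, and 44 took the other sign, in 15 lists whose medians lie within 0.35 of 0. The mean over a gene's probes in place of the brightest gave 197 consistently lower and 238 higher genes. Signal over background limits the dim genes: 33 kept probes were not well above background in any lung.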

Other observations

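Further lists held genes on both sides of the pool, beside 28.1% of all genes called lower and 32.1% called higher. Heat shock and unfolded protein genes gave 7 lower and 2 higher of 21, none of them consistent at 2-fold, with a median of -0.04. The metallothioneins Mt2 and Mt1, which bind zinc, had mean log2 ratios of -1.48 and -1.07, and the glucocorticoid and fasting list they stand in had 5 lower and 6 higher of 17 measured genes, with a median of 0.07. Of 22 immediate early genes 7 were lower and 5 higher, and the transcription factors Egr2 (-1.30) and Atf3 (-1.17) were consistently lower while Fos lay at -0.19 and Junb, on 5 arrays, at -0.05. Glycolysis genes gave 8 lower and 3 higher of 19, with a median of -0.11, and the enolase Eno1 was the 1 consistently lower member (-1.55 on 6 arrays), followed by Gapdh (-0.62 on 5 arrays). NK and cytotoxic cell genes gave 5 lower and 8 higher of 21, with a median of 0.08, and smooth muscle and pericyte genes 5 lower and 8 higher of 22, with a median of 0.11. Platelet and megakaryocyte genes gave 1 lower and 6 higher of 14, with a median of 0.23 that ran from 0.02 to 1.02 over single arrays.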
